A study of Mus musculus with 48 samples.

Results

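Apoe, Apom, Apoc1, Apob, Apoc3, Apoa2, Apoa1 and Apoh, 8 apolipoprotein genes, were followed through mouse kidney RNA measured on Affymetrix arrays. Every probe set annotated to 1 of these symbols alone was taken, whatever its signal. This gave 14 probe sets for 8 of the 18193 genes named on the arrays, of which the 430A chip holds 12 and the 430B chip 2.

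Apolipoproteins are the protein parts of the particles that carry triglyceride and cholesterol through blood, and most of them are made mainly by the liver. Apob is the structural protein of triglyceride-rich and low density particles, Apoa1 and Apoa2 are the main proteins of high density lipoprotein (HDL), Apoe binds receptors of the LDL receptor family, and Apoc1 and Apoc3 restrain lipolysis and particle uptake. Apom carries sphingosine-1-phosphate on HDL and is known from the liver and from the proximal tubule of the kidney. Apoh, also called beta-2-glycoprotein I, binds phospholipids. In the proximal tubule, filtered apolipoproteins are taken up by megalin (Lrp2) and cubilin (Cubn).

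Hyp is a mutation of Phex, an X-linked gene whose loss causes renal phosphate wasting. The 8 groups combined genotype, diet and sex: Hyp and normal littermate mice, a low phosphate and a control Teklad diet given for 3 days with deionized water to mice aged 10 weeks, and male and female mice. Per the labels, Hyp males were hemizygous (Hyp/Y) and Hyp females heterozygous (Hyp/+), so the female mutants kept a normal copy of the gene. The labels of 1 pool name the C57BL/6J strain and those of the others name none. Each group had 3 pools, each holding kidney RNA of 3 mice, for 24 pools and 72 mice in all, and each pool was hybridised to both chips. Pooling averages animals, so the p-values refer to the spread between pools.

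Across the series, pairs of pools of 1 group correlated at r = 0.923 to 0.946 over features. Xist averaged 124.5 ± 33.7 in male pools and 1723 ± 194 in female pools, and Eif2s3y 260.5 ± 31.9 in male pools and 3.10 ± 1.84 in female pools (SD, n = 12 each), without overlap. The 2 Phex probe sets never exceeded 32.8 and 49.8, below the median of every array, and so do not check the labels. Of 12 kidney marker genes, 11 were on the arrays, and all 11 lay above the array median on all 24 arrays.

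The values are signal intensities on a linear scale, and the median signal of an array was 164.65 to 211.2 for 430A chips and 50.9 to 68.3 for 430B chips. No detection calls were used, so the array median serves as the line between probe sets. A probe set above it on all 24 arrays of its chip is called well measured, on 3 to 23 arrays intermediate, and on fewer than 3 near background. Of the 14 probe sets, 7 were well measured, 3 intermediate and 4 near background.

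All 4 near background belonged to Apoa1, the main protein of HDL. Their median signals were 71.1, 30.8, 21.85 and 14.6, and none reached the array median in any pool (at most 0.885 of it). Apoa1 therefore had no tested feature, and no level or difference is given for it.

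The well measured probe sets were 1432466_a_at for Apoe, 1419095_a_at and 1419096_at for Apom, 1455593_at and 1457554_at for Apob, 1418278_at for Apoc3 and 1447719_at for Apoh. The 430B probe sets of Apob and Apoh passed against the lower medians of that chip, at signals of 107.8 to 247.1 and 78.5 to 183.1. The intermediate probe sets were those of Apoc1, Apoa2 and, on the 430A chip, Apoh. Apoa2 exceeded the median on 23 arrays. Apoc1 did so on 11 arrays, 10 of them Hyp and 1 normal, and Apoh on 11 arrays, all of them male.

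Each gene was tested through 1 probe set that exceeded the median on at least 3 arrays, with the 430A chip preferred. In this way 7 of the 8 genes were tested: Apoe, Apom (1419095_a_at), Apob (1455593_at) and Apoc3 on well measured probe sets, and Apoc1, Apoa2 and Apoh (1416677_at) on intermediate ones. Apoc1 passed the filter almost wholly through Hyp arrays and Apoh only through male arrays. The 8 genes were also chosen with earlier results of these data known. Counts and medians over the 7 genes therefore describe and do not support a difference, also where a value over all features stands beside them.

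**Figure D1:**
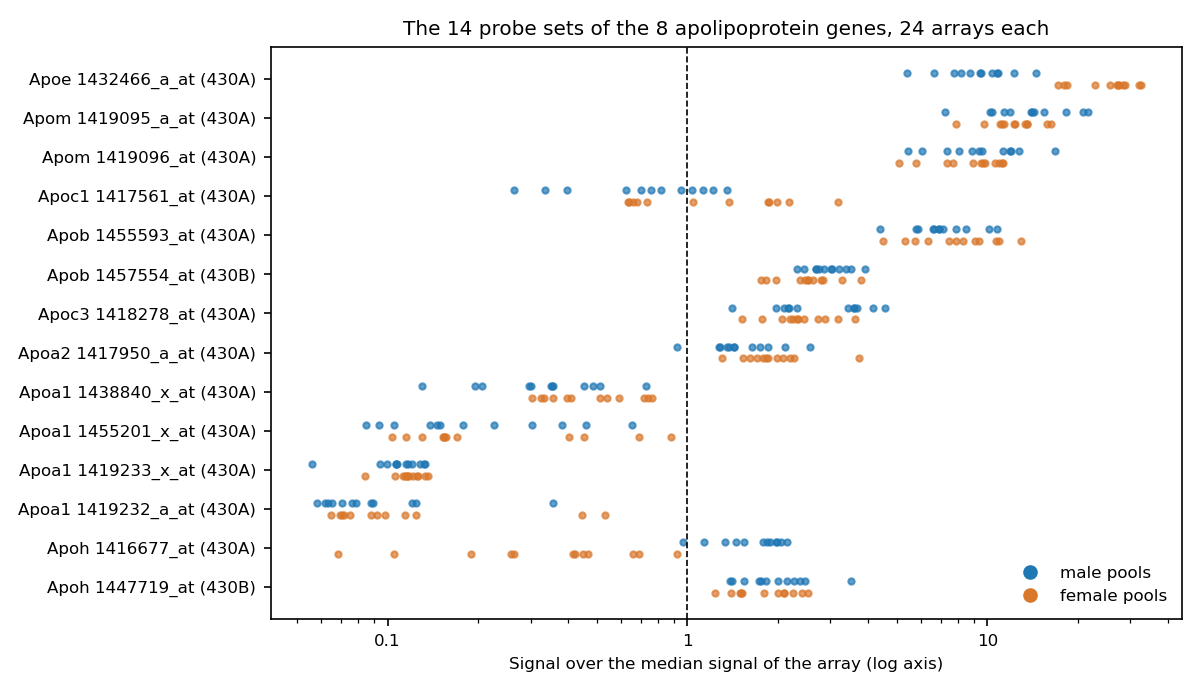
Signal divided by the median signal of the array (log axis) for the 14 apolipoprotein probe sets, with 1 point per pool and a dashed line at the array median. Apoe and Apom lie wholly to the right of the line, all 4 Apoa1 probe sets wholly to its left, and for Apoh on the 430A chip 11 of the male pools and 0 female pools lie to its right.

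RefSeq (GRCm38.p6) start site windows were given for 6 of the 8 genes, with none for Apoc1 and Apoc3. Each window holds 250 bases before and 50 after a start. The 4 printed below belong to the well measured genes that were higher in Hyp kidneys (Apoe, Apom and Apob) and to the gene whose 430A probe set was higher in males (Apoh). They are chr7:19699139-19699438 on the minus strand for Apoe, the window numbered 1 of 3 listed, chr17:35131752-35132051 on the minus strand for Apom, chr12:7977427-7977726 on the plus strand for Apob, and chr11:108395047-108395346 on the plus strand for Apoh. Capitals mark matches, on either strand, to 5 motifs of 6 letters, namely the TATA box, searched for as TATAAA, a nuclear receptor hexamer, searched for as AGGTCA, part of the HNF1 site, searched for as GTTAAT, the hexamer of androgen and glucocorticoid receptors, searched for as AGAACA, and the GC box, searched for as GGGCGG.
Apoe: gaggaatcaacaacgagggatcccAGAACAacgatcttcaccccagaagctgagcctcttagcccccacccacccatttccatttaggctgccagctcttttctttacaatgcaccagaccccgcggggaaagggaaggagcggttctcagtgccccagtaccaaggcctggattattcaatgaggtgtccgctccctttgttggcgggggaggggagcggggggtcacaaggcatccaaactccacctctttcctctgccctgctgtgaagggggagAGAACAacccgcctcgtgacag
Apom: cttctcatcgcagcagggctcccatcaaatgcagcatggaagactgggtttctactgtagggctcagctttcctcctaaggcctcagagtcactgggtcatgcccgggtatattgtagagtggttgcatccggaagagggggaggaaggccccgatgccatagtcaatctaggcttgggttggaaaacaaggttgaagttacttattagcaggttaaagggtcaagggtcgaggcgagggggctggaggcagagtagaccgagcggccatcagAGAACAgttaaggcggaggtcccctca
Apob: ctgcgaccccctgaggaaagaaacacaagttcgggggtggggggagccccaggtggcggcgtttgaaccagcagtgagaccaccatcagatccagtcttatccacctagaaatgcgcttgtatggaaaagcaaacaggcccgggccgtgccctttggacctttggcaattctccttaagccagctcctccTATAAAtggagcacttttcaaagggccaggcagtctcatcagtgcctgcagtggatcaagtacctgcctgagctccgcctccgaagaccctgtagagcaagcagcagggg
Apoh: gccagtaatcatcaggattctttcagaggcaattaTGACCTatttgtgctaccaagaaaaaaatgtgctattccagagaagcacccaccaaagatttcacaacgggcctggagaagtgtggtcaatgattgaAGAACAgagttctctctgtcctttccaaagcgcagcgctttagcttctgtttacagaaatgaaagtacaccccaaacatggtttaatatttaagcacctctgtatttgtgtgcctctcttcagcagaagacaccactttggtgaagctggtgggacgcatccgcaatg
The Apoe window held AGAACA in 2 places, the Apom window held it once, 23 bases after the start, and the Apoh window held it once beside 1 match to AGGTCA on the other strand. The other 2 Apoe windows held no AGAACA, with TATAAA in window 2 and GTTAAT in window 3, and neither did the windows of Apoa2, Apoa1 and Apob. No window of the 6 genes held GGGCGG. The Apob window held TATAAA, 60 bases before the start (position -60). Among all 32851 windows of this length, 19% held AGAACA, 16.3% AGGTCA, 13.6% TATAAA, 7.1% GTTAAT and 35.7% GGGCGG. These matches describe the letters of the windows only.

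The first comparison asked how apolipoprotein RNA differs between Hyp and normal kidneys when diets and sexes are averaged. Apoc1, Apom, Apoe and Apob were higher in Hyp kidneys, Apoc1 by 2.41-fold and the other 3 by 1.32 to 1.39-fold. Apoc3, Apoa2 and Apoh did not pass the threshold, an adjusted p of 0.05. Thus 4 of the 7 tested genes rose and 0 fell by limma, where 1.96% of all 18633 features passed in either direction and 1.05% were higher. The 4 were also the genes with an unadjusted p under 0.05, which 10.7% of features had. The median log2 difference was 0.41 over the 7 genes and -0.0033 over all features. Apoc1 met the filter mainly through Hyp arrays, and the genes were chosen with earlier results of these data known. These shares and medians therefore do not test for enrichment. Whole kidney RNA was measured, so a change in the number of cells of a type and a change in RNA per cell cannot be told apart.

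Apoc1, an inhibitor of lipoprotein uptake and of cholesteryl ester transfer, had signals of 124.9, 205.5 and 177.6 in Hyp males on low phosphate, against 49.2, 111.2 and 65.4 in normal males on low phosphate. In females on low phosphate it had 368.4, 266 and 389.9 in Hyp pools, against 154.5, 123.6 and 114.7 in normal pools. On the control diet the Hyp pools had 185.6 to 229.1 in males and 324.3 to 534.4 in females, against 57.9 to 146.8 in normal males and 125.3 to 204.2 in normal females. Within each diet and sex, every Hyp pool lay above every normal pool, a separation in all 4 strata that 0.408% of features showed. The share of features apart in fewer strata was not computed for genotype, diet or sex. Such counts below therefore only describe the pools. For no apolipoprotein gene did all 12 Hyp pools stand apart from all 12 normal pools, as 0.0483% of features did. The log2 difference was 1.27 ± 0.16 (SE, 12 pools against 12, adjusted p = 5.56e-05). It was 1.30 ± 0.23 on low phosphate and 1.24 ± 0.23 on the control diet, and 1.11 ± 0.23 in males and 1.43 ± 0.23 in females, each past the threshold (adjusted p from 0.00224 to 0.0165). Over all features, 0.778% passed for genotype on low phosphate, 0.665% on the control diet, 1.07% in males and 0.687% in females. Since Apoc1 met the filter mainly through Hyp arrays, the value without the filter is also given, with an adjusted p of 3.84e-04. With 50 added to every signal the difference was 0.97, so the size is uncertain at these low signals.

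Apom, the sphingosine-1-phosphate carrier, had signals of 3712.3, 3348 and 3727.3 in Hyp males on low phosphate, against 2122.6, 2481.6 and 2352.6 in normal males on low phosphate. Hyp males on the control diet had 2310.2, 2569 and 2600.9, against 1346.7, 1867.7 and 1766.8 in normal males on that diet. Females on the control diet had 2734.9, 2449.3 and 2727.6 in Hyp pools, against 1916.1, 1576 and 2096 in normal pools. In these 3 strata no Hyp pool overlapped a normal pool. In females on low phosphate the ranges just overlapped, at 2437 to 2651.9 in Hyp pools against 2190.6 to 2440.3 in normal pools. The log2 difference over all pools was 0.47 ± 0.06 (adjusted p = 7.49e-05). It passed in males (0.62 ± 0.09, adjusted p = 3.44e-04) and not in females (0.33 ± 0.09, adjusted p = 0.103), and the difference between the sexes did not pass (0.29 ± 0.12, adjusted p = 0.765). The other Apom probe set, 1419096_at, gave 0.52 ± 0.09 when limma was run over all probe sets unfiltered (adjusted p = 0.00641).

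Apoe, the receptor ligand of remnant particles, averaged 1946 ± 414 in Hyp males and 1458 ± 334 in normal males, and 5477 ± 658 in Hyp females and 4241 ± 877 in normal females (SD, n = 6 each). On the control diet all Hyp pools lay above all normal pools in each sex. On low phosphate they overlapped in both sexes, with 1862.3 to 2656.5 in Hyp males against 1567.4 to 1913.3 in normal males. The log2 difference was 0.41 ± 0.08 over all pools (adjusted p = 0.00393). It was 0.29 ± 0.11 on low phosphate (adjusted p = 0.332) and 0.52 ± 0.11 on the control diet (adjusted p = 0.0205), and the diets did not differ past the threshold (-0.23 ± 0.15, adjusted p = 0.939).

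Apob, the structural protein of triglyceride-rich particles, averaged 1671 ± 394 in Hyp pools and 1190 ± 250 in normal pools (SD, n = 12 each). Hyp pools ranged from 988 to 2243.2 and normal pools from 779.6 to 1674.9, and the groups were apart in 1 of the 4 strata, females on low phosphate (1565.2, 1815.5 and 2147.1 in Hyp pools, against 1126.4, 1233.6 and 1028 in normal pools). The log2 difference of 0.48 ± 0.12 passed narrowly (adjusted p = 0.0403). The call ended without any 1 of 15 pools, drawn from all 8 groups (adjusted p from 0.00949 to 0.082 over the pools left out), and without the filter (adjusted p = 0.101). When limma was run over all probe sets unfiltered, the 430B probe set of Apob gave 0.20 ± 0.13 (adjusted p = 0.796). In that fit 1455593_at did not pass either (0.48 ± 0.13, adjusted p = 0.121).

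The 3 other tested genes had log2 differences of 0.09 ± 0.09 for Apoc3 (adjusted p = 0.82), -0.13 ± 0.12 for Apoa2 (adjusted p = 0.81) and -0.61 ± 0.30 for Apoh (adjusted p = 0.487). Their 95% intervals were -0.09 to 0.28, -0.38 to 0.12 and -1.23 to 0.02. For Apoc3 and Apoa2 these intervals leave out the size seen for Apom, and for Apoh the interval is wide. The value of Apoh comes from its intermediate 430A probe set. Its 430B probe set, which counts as well measured by the lower medians of that chip (signals of 78.5 to 183.1), had the opposite sign. That probe set gave 0.05 ± 0.17 (adjusted p = 0.978), so no direction is given for Apoh. Within the pools that the labels number as series 1, 2 and 3, the genotype difference was positive in each series for all 4 called genes: 0.92 to 1.82 for Apoc1, 0.40 to 0.57 for Apom, 0.33 to 0.47 for Apoe and 0.23 to 0.70 for Apob.

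**Figure D2:**
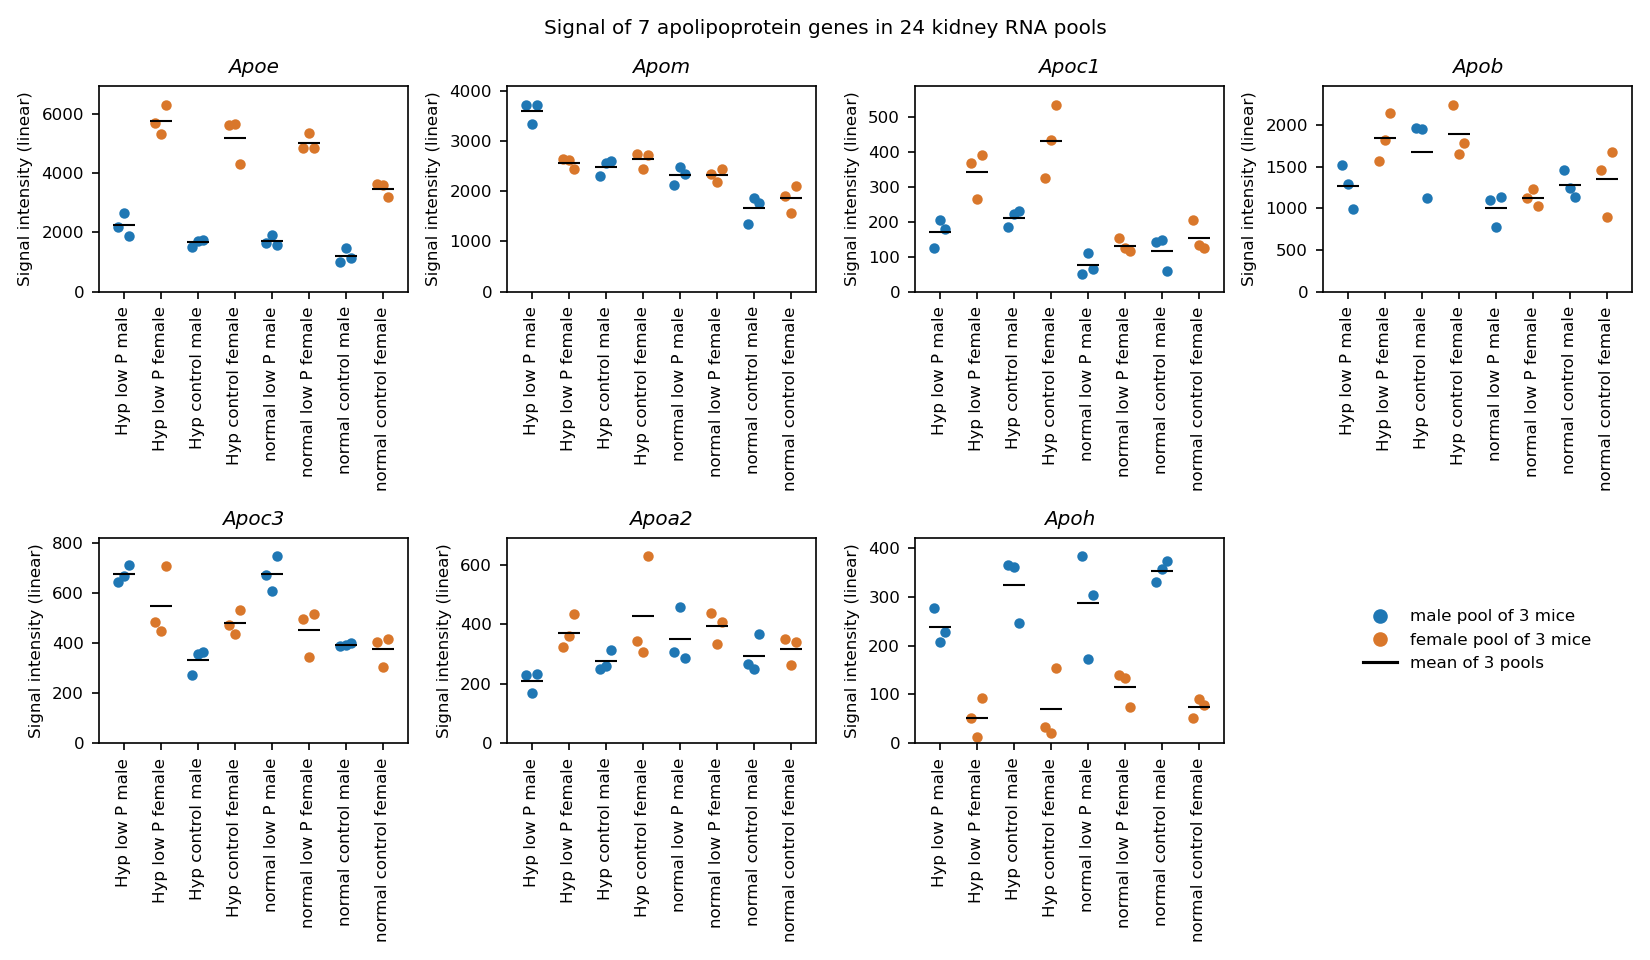
Signal intensity (linear axis from 0) of the 7 tested apolipoprotein genes in each of the 24 pools, by group, with a line at the mean of 3 pools and P for phosphate. Male Apoe points lie between 1000 and 2656.5 and female points between 3183.7 and 6301, and Hyp males on low phosphate stand alone at the top for Apom.

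The next question was how the 7 genes responded to the low phosphate diet, given for 3 days. Apoc3, Apoe and Apom rose, by 1.47, 1.32 and 1.26-fold, and no tested apolipoprotein gene fell. That is 3 of 7 by limma, where 0.773% of all features passed in either direction and 0.419% were higher. Apoc1 and Apob gave negative values that did not pass. The median was 0.01 over the 7 genes and 0.0064 over all features.

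Apoc3, which slows lipoprotein lipase and remnant uptake, had signals of 643.6, 668.5 and 714.7 in Hyp males on low phosphate, against 272.8, 358.7 and 366.1 in Hyp males on the control diet. Normal males had 671.8, 609.6 and 748.8 on low phosphate, against 389.1, 393.8 and 401.7 on the control diet. In each male stratum the low phosphate pools were all higher. Hyp females had 484.3, 449.4 and 709.4 on low phosphate, against 472.1, 438.7 and 532.4 on the control diet. Normal females had 495.3, 346.5 and 517.5 on low phosphate, against 404.9, 304.3 and 415.9 on the control diet. In females the diets overlapped in both genotypes. The log2 difference was 0.56 ± 0.09 over all pools (adjusted p = 0.00175), 0.90 ± 0.12 in males (adjusted p = 6.85e-04) and 0.21 ± 0.12 in females (adjusted p = 0.732). Over all features, 0.338% passed for diet in males, 0.225% in females, 0.15% in Hyp pools and 0.467% in normal pools.

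The difference between the sexes in this diet response was 0.69 ± 0.18 for Apoc3. Its unadjusted p was 8.55e-04, and it did not pass over all features (adjusted p = 0.435, and 0.279 to 0.825 without any 1 pool). Ordered by mean signal, the 8 groups of Apoc3 ran from 677 ± 69.7 in normal males and 676 ± 36.1 in Hyp males on low phosphate to 333 ± 51.9 in Hyp males on the control diet (SD, n = 3 each). Each group overlapped its neighbour in that order.

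Apoe rose on low phosphate, with a log2 difference of 0.41 ± 0.08 (adjusted p = 0.00768). Normal females had 4841.4, 5341.7 and 4847.9 on low phosphate, against 3621.7, 3607.1 and 3183.7 on the control diet, and normal males had 1640.7, 1913.3 and 1567.4, against 1000, 1478.5 and 1149.5. Hyp males had 2184.4, 2656.5 and 1862.3 on low phosphate, against 1501.3, 1720.5 and 1748.1 on the control diet. These 3 strata did not overlap, while Hyp females had 5306.1 to 6301 on low phosphate and 4309 to 5644 on the control diet. The difference was 0.29 ± 0.11 in Hyp pools (adjusted p = 0.643) and 0.52 ± 0.11 in normal pools (adjusted p = 0.0271). The genotypes did not differ past the threshold, as given above for the same interaction.

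Apom gave 0.33 ± 0.06 (adjusted p = 0.00835). The pools on low phosphate were all above those on the control diet in Hyp males, normal males and normal females. In Hyp females they were not, at 2651.9, 2631.2 and 2437 on low phosphate against 2734.9, 2449.3 and 2727.6 on the control diet. The difference was 0.51 ± 0.09 in males (adjusted p = 0.00736) and 0.15 ± 0.09 in females (adjusted p = 0.74), and the sexes differed by 0.36 ± 0.12 without passing (unadjusted p = 0.00794, adjusted p = 0.898). The call ended with arrays scaled to a common median (0.31 ± 0.08, adjusted p = 0.126). The other Apom probe set gave 0.36 ± 0.09 and did not pass among all probe sets (adjusted p = 0.151). Hyp males on low phosphate, at 3596 ± 215 (SD, n = 3), stood above every pool of every other group for Apom. At the low end were normal males on the control diet, at 1660 ± 276, which overlapped normal females on that diet at 1863 ± 264.

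The remaining genes did not pass for diet. Apoc1 gave -0.37 ± 0.16 (adjusted p = 0.483) and Apob -0.25 ± 0.12 (adjusted p = 0.526), both with an unadjusted p under 0.05, which 9.51% of features had, and Apoa2 gave 0.01 ± 0.12 and Apoh -0.10 ± 0.30. Low phosphate pools were all below control pools in 1 stratum for Apob, normal males (779.6 to 1133.3 on low phosphate against 1138 to 1462.5 on the control diet), and in 1 for Apoa2, Hyp males (168.7 to 231.9 on low phosphate against 250.2 to 314.1 on the control diet). For Apoc1 and Apoh they overlapped in every stratum. Within series 1 to 3 the diet difference was positive each time for the called genes, at 0.44 to 0.65 for Apoc3, 0.37 to 0.42 for Apoe and 0.25 to 0.40 for Apom. Low phosphate pools separated from control pools in 3 strata for Apoe, 3 for Apom and 2 for Apoc3, and in all 4 strata for none of these, where 0.166% of features did so. None separated over all 12 pools against 12 either, as 0.0107% of features did. The counts of 2 and 3 strata have no share over all features beside them and only describe the pools.

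**Figure D3:**
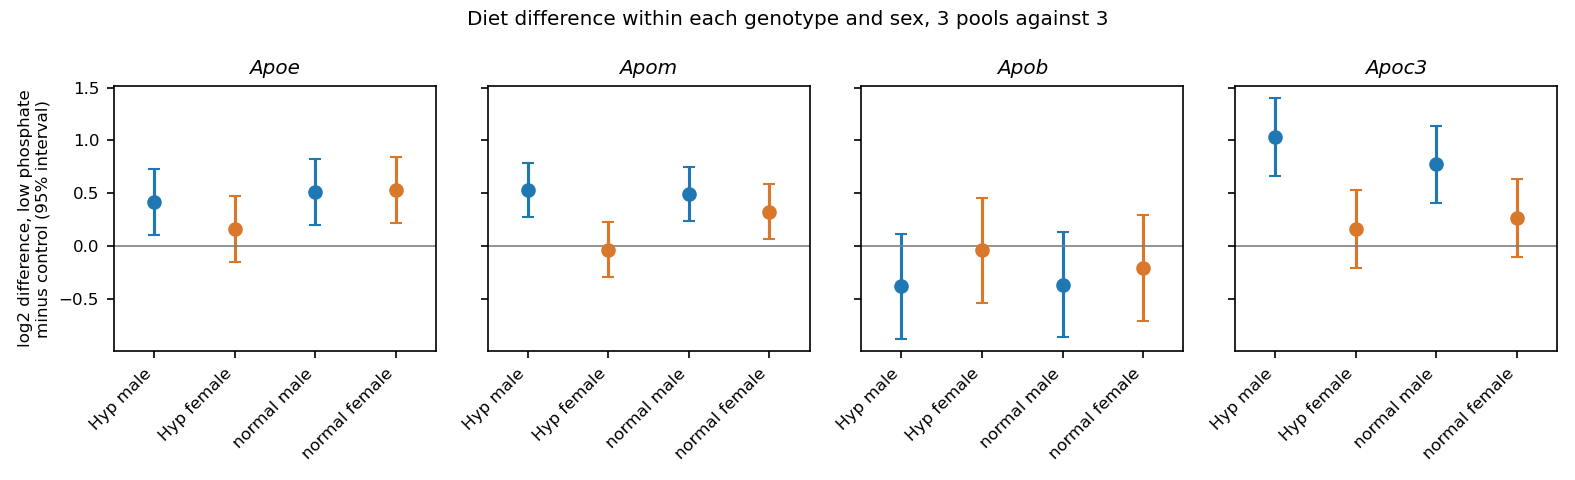
Log2 difference of low phosphate minus control diet with its 95% interval within each genotype and sex (3 pools against 3) for the 4 genes with well measured probe sets. For Apoc3 the points are 1.03 in Hyp males, 0.16 in Hyp females, 0.77 in normal males and 0.26 in normal females, while for Apob all 4 intervals cross 0.

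The third comparison set male against female kidneys. Apoe, Apoc1 and Apoa2 were lower in males, Apoe by 2.88-fold, and the 430A probe set of Apoh was higher in males. By limma 1 of 7 genes was higher and 3 were lower, where 15.8% of all features passed in either direction. The 1 higher gene, Apoh, met the filter through male arrays only, and its 430B probe set did not pass (0.07 ± 0.17, adjusted p = 0.88). The counts over the 7 genes therefore only describe them. Of all features tested, 6.07% were higher and 9.78% lower. With arrays scaled to a common median the split over all features was 1695 higher and 969 lower, in place of 1131 higher and 1822 lower. An unadjusted p under 0.05 was found for the same 4 genes and for 27.5% of features. The median was -0.24 over the 7 genes and -0.05 over all features.

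Apoe ranged from 1000 to 2656.5 in male pools with a median of 1681, and from 3183.7 to 6301 in female pools with a median of 5077. No male pool reached the lowest female pool, a separation of 12 pools from 12 that 1.96% of features showed, while 3.3% separated in all 4 strata. The log2 difference was -1.53 ± 0.08 (adjusted p = 2.28e-12), and it was -1.51 ± 0.11 in Hyp pools and -1.55 ± 0.11 in normal pools. For sex, 7.18% of all features passed in Hyp pools, 9.23% in normal pools, 8.33% on low phosphate and 7.98% on the control diet. In the order of group means for Apoe, the 4 female groups came first (5766 ± 502 in Hyp females on low phosphate, 5188 ± 761 in Hyp females on the control diet, 5010 ± 287 in normal females on low phosphate, 3471 ± 249 in normal females on the control diet). Neighbours among the first 3 overlapped, and normal females on the control diet stood apart from those above them and from the males below them. The male groups followed at 2234 ± 399, 1707 ± 182 and 1657 ± 135 (Hyp low phosphate, normal low phosphate, Hyp control), with overlap, and 1209 ± 245 in normal males on the control diet, without overlap (SD, n = 3 each).

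Apoc1, the neighbour of Apoe on chromosome 7, averaged 143 ± 63.1 in male pools and 264 ± 144 in female pools (SD, n = 12 each). The difference was -0.85 ± 0.16 (adjusted p = 0.00082), with -1.01 ± 0.23 in Hyp pools (adjusted p = 0.00772) and -0.69 ± 0.23 in normal pools (adjusted p = 0.0696). All male pools lay below all female pools in 3 of the 4 strata, the exception being normal mice on the control diet (57.9 to 146.8 in males, against 125.3 to 204.2 in females).

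Apoa2, an HDL protein, averaged 282 ± 74.3 in males and 377 ± 94.5 in females, with overlap. Its difference of -0.43 ± 0.12 passed (adjusted p = 0.0168), and the call ended under quantile normalization (-0.36, adjusted p = 0.0705) and common median scaling (-0.33, adjusted p = 0.11). It was -0.70 ± 0.17 in Hyp pools (adjusted p = 0.0119) and -0.15 ± 0.17 in normal pools (adjusted p = 0.672), a gap that did not pass (-0.54 ± 0.24, unadjusted p = 0.0326, adjusted p = 0.765).

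Apoh, the phospholipid-binding glycoprotein, ranged from 172.4 to 383.1 in male pools with a median of 317 on its 430A probe set, and from 13.3 to 154.6 in female pools with a median of 76.2. No pools overlapped, a separation of 12 from 12 that 1.96% of features showed. Every female pool lay below its array median, so the size of the difference is uncertain. The log2 difference was 2.23 ± 0.30 (adjusted p = 1.4e-05), and 1.52 with 50 added to every signal. Since this probe set met the filter through male arrays only, that p is not independent of the filter, and without the filter the adjusted p was 9.4e-05. The 430B probe set of Apoh, 1447719_at, did not show it, with 118 ± 31 in males and 113 ± 30 in females (SD, n = 12 each) and a difference of 0.07 ± 0.17 (adjusted p = 0.88). The probe sets of Apoh therefore disagree, and which of them follows the Apoh transcript was not tested.

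For Apom, Apob and Apoc3 the sex difference did not pass, at 0.06 ± 0.06 (adjusted p = 0.622), -0.24 ± 0.12 (adjusted p = 0.193) and 0.12 ± 0.09 (adjusted p = 0.427). Their 95% intervals were -0.07 to 0.19, -0.49 to 0.01 and -0.07 to 0.30. The 430B probe set of Apob, 1457554_at, had the opposite sign for sex, at 0.19 ± 0.13 (adjusted p = 0.476), so no direction is given for Apob. Apoc3 was higher in males on low phosphate (0.46 ± 0.12, adjusted p = 0.0224) and gave -0.23 ± 0.12 on the control diet (adjusted p = 0.345). Within series 1 to 3 the sex difference lay between -1.68 and -1.37 for Apoe, -1.14 and -0.34 for Apoc1, -0.57 and -0.24 for Apoa2, and 1.57 and 2.61 for Apoh on the 430A chip.

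**Figure D4:**
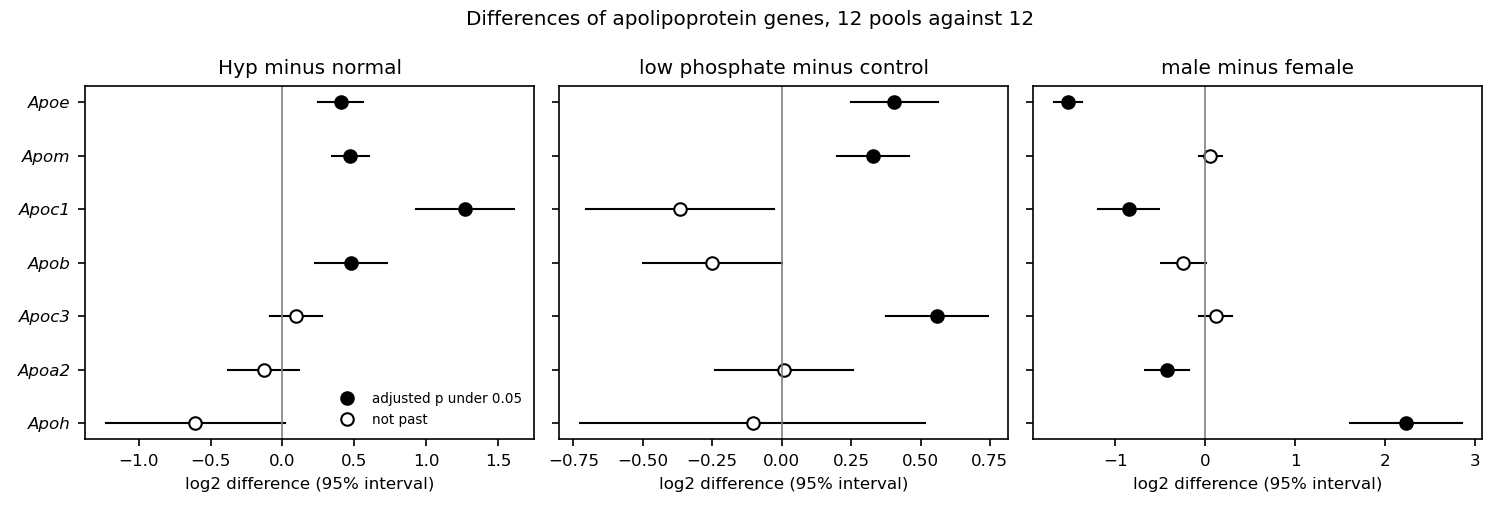
Log2 differences of the 7 tested genes with 95% intervals for genotype, diet and sex (12 pools against 12 each), with filled points where limma's adjusted p passed. The filled points are 4 for genotype, all right of 0, 3 for diet, all right of 0, and 4 for sex, of which Apoh at 2.23 is right of 0.

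By limma 0 of the 7 genes passed for any of the 4 interactions. At an unadjusted p under 0.05 there were 1 gene for genotype by diet (Apoa2, -0.55 ± 0.24), 3 for genotype by sex (Apom, Apoc3 and Apoa2), 2 for diet by sex (Apom and Apoc3) and 0 for all 3 factors together. Over all features 0.0161%, 0.0805%, 0% and 0% passed these 4 tests, with 5.38%, 6.41%, 5.46% and 3.88% of features at an unadjusted p under 0.05. For genotype by sex, Apoc3 gave -0.45 ± 0.18 (unadjusted p = 0.0196, adjusted p = 0.717). Because Hyp females are heterozygous, a genotype by sex value compares mutants of different gene dosage.

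The genes lie in part in clusters. On chromosome 7 the order is Apoc2, Apoc4, Apoc1 and Apoe, and on chromosome 9 it is Apoa1, Apoc3, Apoa4 and Apoa5. Of the cluster members not described so far, Apoc2, the activator of lipoprotein lipase, had a median of 12.6, Apoc4 of 15.35 and Apoa5 of 52.1, and none exceeded the array median in any pool. Apoc1 and Apoe, next to each other, were higher in Hyp and lower in males, while for diet Apoe rose and Apoc1 gave a negative value that did not pass. Next to Apoc3, 1 of the Apoa4 probe sets had a median of 18.05 and exceeded no array median, and the other, 1436504_x_at, exceeded it on 7 arrays with 31.3 to 294.5. On that probe set Apoa4, a lipoprotein component made mainly by the intestine, was higher in males (0.80 ± 0.25, adjusted p = 0.0338, a call that ended without any 1 of 11 pools) and gave 0.54 ± 0.25 for diet (adjusted p = 0.508).

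Likeness of pattern was measured by Pearson's r of log2 signal over the 24 pools, among 7758 named features of the 430A chip, as a description of pools that share their 8 groups. Nearest to Apoe were Epcam (0.947), Lyplal1 (0.941) and Kng1 (0.941). Nearest to Apom were Mdk (0.772), Dpp7 (0.764) and Macrod1 (0.734). Mdk, the gene of the growth factor midkine, was also near Apoc3 (0.698), after Ppp1r14b (0.745) and Fam151a (0.703). Nearest to Apob were Rnase4 (0.781), Cwh43 (0.722) and Ltc4s (0.716). Among the 4 genes themselves r was 0.55 for Apoc3 with Apom, 0.32 for Apob with Apoe, 0.25 for Apoe with Apom, 0.14 for Apob with Apom, 0.07 for Apoc3 with Apoe and -0.16 for Apob with Apoc3.

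Other genes of lipoprotein biology were counted in 6 lists of 112 genes, 97 of them on the arrays and 69 tested. For genotype 1 of the 69 rose and 3 fell by limma, against 1.05% higher and 0.912% lower over all features. Clu, a lipid-binding apolipoprotein also called clusterin, rose (0.30 ± 0.06), and Dgat2, which makes triglyceride (-0.28 ± 0.07), and the scavenger receptor genes Cd36 (-0.32 ± 0.06) and Stab2 (-0.40 ± 0.10) fell. The Stab2 call ended without any 1 of 15 pools (adjusted p up to 0.0821) and the Dgat2 call without any 1 of 6 (adjusted p up to 0.0533), and both ended without the filter (adjusted p = 0.0934 for Stab2 and 0.0567 for Dgat2). The median of the 69 was -0.05, and over the 6 other apolipoproteins among them, of which only Clu passed, it was 0.02. Over the 7 apolipoprotein genes followed here it was 0.41. Lrp2 and Cubn, the tubular uptake receptors, gave -0.06 ± 0.05 and -0.02 ± 0.05, and Mttp, which loads lipid onto Apob, gave 0.28 ± 0.16, none of them past the threshold.

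For diet 1 of the 69 rose and 1 fell: Angptl4, an inhibitor of lipoprotein lipase (0.78 ± 0.16), and Ppara, a nuclear receptor activated by fatty acids (-0.46 ± 0.11). Both calls ended without the filter, where the adjusted p was 0.0516 for Angptl4 and 0.118 for Ppara. The Angptl4 call held without any 1 pool (adjusted p 0.00384 to 0.0357). The Ppara call held without 1 pool for 4 of the 24 pools only (adjusted p 0.00796 to 0.097 over all). The median of the 69 was 0.05, and for all features 0.419% were higher and 0.354% lower. Lrp2 and Cubn gave 0.12 ± 0.05 and 0.15 ± 0.05 and did not pass.

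For sex 11 of the 69 were higher in males and 11 lower, against 6.07% and 9.78% of all features. Among 17 tested receptors and adaptors 2 were higher and 6 lower, with Cd36 at 1.27 ± 0.06, Cubn at -0.52 ± 0.05, Lrp8 at -0.96 ± 0.16 and Lrp2 at -0.28 ± 0.05. Without the filter the Lrp8 call ended (adjusted p = 0.102). Among 13 assembly and secretion genes 4 were higher and 1 lower, with Tm6sf2, which acts in lipidation of particles, at -1.76 ± 0.23. The higher ones included Sar1b, a GTPase of vesicles that leave the endoplasmic reticulum (0.21 ± 0.04), A1cf, a cofactor of Apob RNA editing (0.55 ± 0.12), and Mia3, a cargo receptor at the same exit sites (0.36 ± 0.08). Of 6 other apolipoproteins Clu was lower in males (-0.38 ± 0.06, adjusted p = 4.08e-05) and Apoa4 higher, as given above. Of 8 lipases, transfer proteins and HDL enzymes 2 were higher, Lpl, the lipase of triglyceride-rich particles (0.35 ± 0.07), and its inhibitor Angptl4 (0.49 ± 0.16), and 1 was lower, Pon3, an HDL-associated lactonase (-0.40 ± 0.11). The Angptl4 call ended without any 1 of 12 pools (adjusted p up to 0.0704) and without the filter (adjusted p = 0.0748), and the Pon3 call ended under quantile normalization and common median scaling. The cholesterol exporter gene Abca1, the only call of 11 export genes, gave -0.55 ± 0.09. Of 14 transcription factors Nr1h4, the bile acid receptor gene, was higher (0.76 ± 0.08) with Cebpb (0.41 ± 0.09), and Cebpa was lower (-0.46 ± 0.06).

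**Figure D5:**
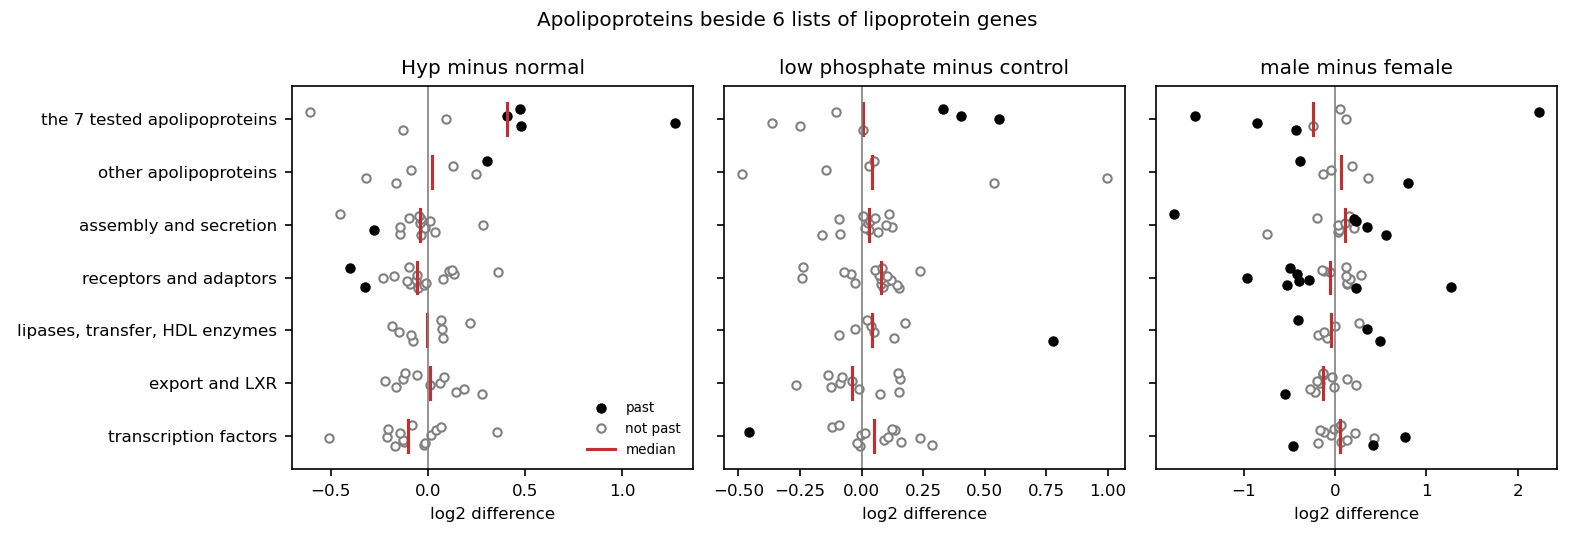
Log2 differences of the 7 apolipoprotein genes and of the tested genes of 6 lipoprotein lists, with filled points past limma's threshold and a red line at each median. For genotype the red line of the 7 apolipoprotein genes is at 0.41 and that of the other apolipoproteins at 0.02, and only 4 of the 69 list genes are filled.

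Markers of other cell types were set beside these results. In the liver list 10 of 30 genes were tested and 13 were near background, among them Ahsg, Fgb, Hpx, Hp, Ambp and Cps1. For genotype Ttr (3.07 ± 0.09) and Fga (0.47 ± 0.11) of that list rose and 0 fell, and the Fga call ended without the filter (adjusted p = 0.0526). An unadjusted p under 0.05 was found for 5 of the 10, among them Fgg (0.54 ± 0.15, adjusted p = 0.0844) and Serpina1c (0.36 ± 0.11, adjusted p = 0.124), all 10 values were positive, and their median was 0.32, beside log2 differences of 0.41 to 0.48 for Apoe, Apom and Apob. Its summed signal was 17302 to 37402.5 in Hyp pools and 6390.3 to 12724.2 in normal pools. Without Ttr, a choice made after the values were seen, it was 6149.8 to 7591.6 in Hyp pools and 4829.4 to 6819.9 in normal pools. The part of liver-type transcripts in the genotype differences of Apoc1, Apom, Apoe and Apob was not tested. For diet Alb (-0.78 ± 0.15) and Ttr (-1.23 ± 0.09) of the liver list fell, while Apoc3, Apoe and Apom rose. The sum of the list was 6390.3 to 30699.9 on low phosphate and 8410.1 to 37402.5 on the control diet. For sex 5 of the liver list were higher in males and 2 lower, with summed signals of 6553.4 to 37402.5 in male pools and 6390.3 to 29751.1 in female pools (mean 19831 in male and 15446 in female pools). Without Ttr the order of the means turned, and the sum was 4829.4 to 6615.1 in male pools and 5656.7 to 7591.6 in female pools (mean 5837 in male and 6663 in female pools). The part of liver-type transcripts in the diet and sex differences was not tested either.

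Macrophages also make Apoe. Of 17 leukocyte markers 12 were tested. None passed for genotype or diet by limma, with 3 and 1 at an unadjusted p under 0.05, while 6 were lower in males and 0 higher, among them Cd14 (-0.65 ± 0.06), C1qb (-0.40 ± 0.07) and Lyz2 (-0.36 ± 0.07). The summed signal of the list was 7027 to 8990 in male pools and 8113 to 9737 in female pools, and Mrc1, Itgam, Aif1, Cd3e and Cd79a were near background. Its part in the sex difference of Apoe and Apoc1 was not tested. Proximal tubule markers moved in both directions: of 14 tested, 5 were higher and 3 lower in Hyp, among them Slc7a12 (0.79 ± 0.12) and Slc5a2 (-0.64 ± 0.06), 1 was higher and 2 lower on low phosphate, and 4 were higher and 7 lower in males. Their part in the Apom differences was not tested.

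Some genes of the red blood cell and fat lists also moved. Of 8 genes listed for red blood cells 3 were tested, while Hba-a1 and Hba-a2 were near background. For genotype Slc4a1, an anion exchanger gene, rose (0.42 ± 0.09, adjusted p = 0.00991) and was the only 1 of the 3 to pass. Which kidney or blood cells gave the Slc4a1 signal was not tested. Alas2 gave 0.57 ± 0.16 (adjusted p = 0.0878) and Hbb-b2 0.26 ± 0.20. The median of the 3 was 0.42, which is the value of Slc4a1 itself. Their summed signal was 697.2 to 1110.5 in Hyp pools and 536 to 884.9 in normal pools. In limma 0 of the 3 passed for diet or sex, and an unadjusted p under 0.05 was found for 0 and 1 of them. Of 8 fat genes 4 were tested. For genotype Car3 fell (-1.45 ± 0.12), Adipoq (0.17 ± 0.16), Retn and Fabp4 did not pass, and the median of the 4 was 0.01. The summed signal of the 4 fat genes was 2266.9 to 3642 in Hyp pools and 3466.9 to 5142.3 in normal pools. In males Adipoq, Retn and Fabp4 were lower and Car3 higher. Of 8 adrenal cortex genes 3 were tested, and in limma 0 passed for genotype, diet or sex, with no unadjusted p under 0.05 (0 of 3 each time). The part of these cell types in the apolipoprotein differences was not tested.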

How the data were processed

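Kidney RNA from 24 pools (8 groups of 3) was extracted with TRIzol, per the labels' protocols. Each deposited table gives 1 linear intensity for every probe set. GCOS 1.2 is named in the submitters' processing notes. Its scaling target, like its expression algorithm, was not given in the sources used here. On every array the 100 probe sets shared by both chips had a mean of 1200 after trimming 2% at each end, so the deposited intensity was already scaled. Symbols came from the platform's probe annotation, updated through Entrez identifiers with the GRCm38.p6 gene table: of 45137 probe sets that are not controls, 35041 had 1 symbol, 936 several and 9160 none, and 34837 matched.

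After a floor of 1, log2 intensities were modelled in limma 3.58.1 (lmFit, eBayes; R 4.3.3) with a mean for each of 8 groups. The chips were fitted apart, and p-values were adjusted by Benjamini-Hochberg over the 18633 features of both, with a threshold of 0.05. A feature exceeded the array median on at least 3 of 24 arrays, with 1 probe set per gene, the brightest by mean log2 signal and from the 430A chip where possible. Values given as without the filter come from the same fit with the filter dropped and still 1 probe set per gene. In a separate fit every probe set was taken unfiltered, and the values of the other probe sets of a gene come from it. On simulated data with the 18633 features, the genotype fit called 58 of 100 changes of 0.5 and 73 of 100 changes of 1 on the log2 scale, and 9 unchanged features. The simulated noise was normal, with the spread of each feature, and independent between pools and features. The simulation held no diet or sex effect and no link by series number, so these counts may differ in the real data. Values after ± are standard errors unless an SD is named, and every adjusted p is limma's.

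The rule named all 8 members, from each of the 6 lipoprotein lists up to 4 genes with the smallest adjusted p past the threshold for each effect, the 3 genes most like each well measured member, and every gene of both clusters. Lrp2, Cubn and Mttp are given outside it for their known roles, and marker genes were picked as examples after their values were seen. The members and lists were chosen with earlier results of these data known. Alternatives changed the filter, floor, normalization, adjustment, variance prior, series block, probe set and the pools used. Precision is limited by the number of arrays, since arrays have no read depth.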

Additional observations from a re-analysis of the deposited data

How the results depend on the processing

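Each tested gene was recomputed for 7 tests under every alternative that kept it. The comparison with a gene's other well measured probe sets, from the fit of all probe sets, covered genotype, diet and sex only. The 24 fits that leave out 1 pool were counted by their lowest and highest difference only. Among these values 476 kept their side of the threshold, 9 lost a call and 0 called values changed sign. The main fit called 4 genes for genotype, 3 for diet, 4 for sex and 0 for each interaction. The 476 are therefore mostly uncalled values that stayed uncalled and had no call to lose. Of values that passed in neither fit 21 differed in sign, 7 of them for genotype, diet or sex: Apoh for genotype (on its 430B probe set, under both settings that use it) and for diet (1 pool left out), Apob for sex (430B probe set) and Apoa2 for diet (both scalings and 1 pool left out). The losses were Apob for genotype without the filter, without single pools (its lowest difference, 1 of the 9) and on its 430B probe set; Apom for diet under common median scaling and on its other probe set; Apoa2 for sex under quantile normalization and median scaling; and Apoh for sex on its 430B probe set, under both settings that use it. The loss of Apob on its 430B probe set mixes a change of probe set with a change of fit. In limma over all probe sets unfiltered, 1455593_at did not pass for genotype either (adjusted p = 0.121). Keeping only probe sets above the array median on all 24 arrays left 1 of 5 genes called for sex in place of 4 of 7, since it left out Apoc1 and Apoa2 and took the 430B probe set of Apoh. The 15 pools whose loss ended the Apob call were, by series number, 1 and 3 of Hyp control females, 1 and 2 of Hyp control males, 2 and 3 of Hyp low phosphate females, 1 and 2 of Hyp low phosphate males, 2 of normal control females, 2 and 3 of normal control males, 1, 2 and 3 of normal low phosphate females and 2 of normal low phosphate males. No other call of the 7 genes for genotype, diet or sex ended with 1 pool left out. Over the 6 lists the genotype calls numbered 4, with 2 without the filter and 2 to 5 when 1 pool was left out (2 without normal control female 2 or normal low phosphate male 2). The diet calls of the lists numbered 2, with 0 of 97 without the filter (the Angptl4 and Ppara calls ended, and 15 had an unadjusted p under 0.05) and 1 to 2 when 1 pool was left out, where the call lost was that of Ppara; it held only without Hyp control male 3, normal control female 2, normal low phosphate female 1 or normal low phosphate male 1. The cause was not tested. Over all features the diet calls numbered 78 higher and 66 lower, and 50 and 44 without the filter. With series number as a replicate block, member calls were the same, and calls over all features were 219 higher and 219 lower for genotype, 103 and 82 for diet and 1225 and 2025 for sex. The 84 pairs of pools with the same number had residual correlations of -0.0519 to 0.0869 with 0 over 0.1. The labels name no shared litter or day, and the main fit does not pair the pools by number. The residuals nevertheless followed the numbers, since 22 of 24 pools were closest to their own number. The median correlation was 0.028 for equal and -0.0149 for different numbers. The main fit leaves this link out, and the fit with the replicate block takes it in. Many pools of Apoc1 and Apoh (on the 430A chip) lie below the array median, so the sizes of their differences are uncertain.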
